A study of Mus musculus with 10 samples.

Results

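The amino acid transporter genes described here are the protein-coding mouse genes whose symbols place them in the solute carrier families Slc1, Slc3, Slc6, Slc7, Slc36, Slc38 or Slc43. They were picked by symbol, but the choice was made with earlier results of these data known. There were 64 such genes among the 48471 genes with a matched transcript. One of them, Slc7a6os, carries a transporter symbol because it lies on the opposite strand of Slc7a6, and it is not a transporter. Of the 64 genes, 36 had enough reads to be tested in the comparison of the 2 sorted fractions.

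RNA-seq was carried out on myofibroblastic cancer-associated fibroblasts (myCAFs), the contractile, matrix-producing fibroblasts of a tumour, sorted by flow cytometry into a CD90-negative and a CD90-positive fraction. CD90 is the surface protein encoded by Thy1. Both fractions came from C57BL/6J mice carrying pancreatic ductal adenocarcinomas that had grown from transplanted KPC T-LOH organoids, KPC being a genetically engineered mouse model of pancreatic cancer. There were 5 CD90-negative and 5 CD90-positive libraries, 1 of each from each of 5 tumour pools, and no other treatment or genotype was compared. The mice are described as male and their age is not given. Pools 1 to 5 name 4, 1, 2, 3 and 1 animals in the sample titles, 11 in all, whereas the study's design text counts 5 mice, so n is given here as pools. The sources used here do not name the other markers of the sort.

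Amino acids cross membranes through carriers of several families. The Slc7 light chains exchange amino acids across the plasma membrane and most of them need a heavy chain of the Slc3 family to reach it, whereas the cationic carriers of Slc7 import arginine, lysine and ornithine alone. Slc38 and Slc1 members move small neutral or acidic amino acids together with sodium. Some Slc36 members use protons, and Slc43 members no coupled ion. Slc6 members carry amino acids, taurine, creatine or amine transmitters with sodium and chloride. In pancreatic tumours, fibroblasts are known to exchange amino acids such as glutamine and alanine with the cancer cells.

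Among the 36 tested genes, 9 differed between the fractions, with 8 lower and 1 higher in CD90-negative libraries. They were called by edgeR's quasi-likelihood test with the pool as a block and a Benjamini-Hochberg adjusted p under 0.05 over all 15378 genes tested. The same rule called 12.9% of all genes tested, 5.83% higher and 7.05% lower. Among the 13324 nuclear protein-coding genes tested, the class that holds all 36, it called 14.3%. The lower genes were the cationic carrier Slc7a2, the light chain Slc7a8, the sodium-coupled carriers Slc38a1, Slc38a4 and Slc38a10, the facilitators Slc43a1 and Slc43a3, and the creatine carrier Slc6a8. The cationic carrier Slc7a1 was the gene that was higher. All 8 lower genes were lower in the CD90-negative library in 5 of 5 pools, and Slc7a1 was higher in 5 of 5. The fitted log2 folds, CD90-negative over CD90-positive, were positive for 18 and negative for 18 of the tested genes, with a median of −0.01 beside 0.04 for all genes tested. In whole-fraction RNA, fewer cells that express a gene and less of its RNA per cell cannot be told apart.

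**Figure D1:**
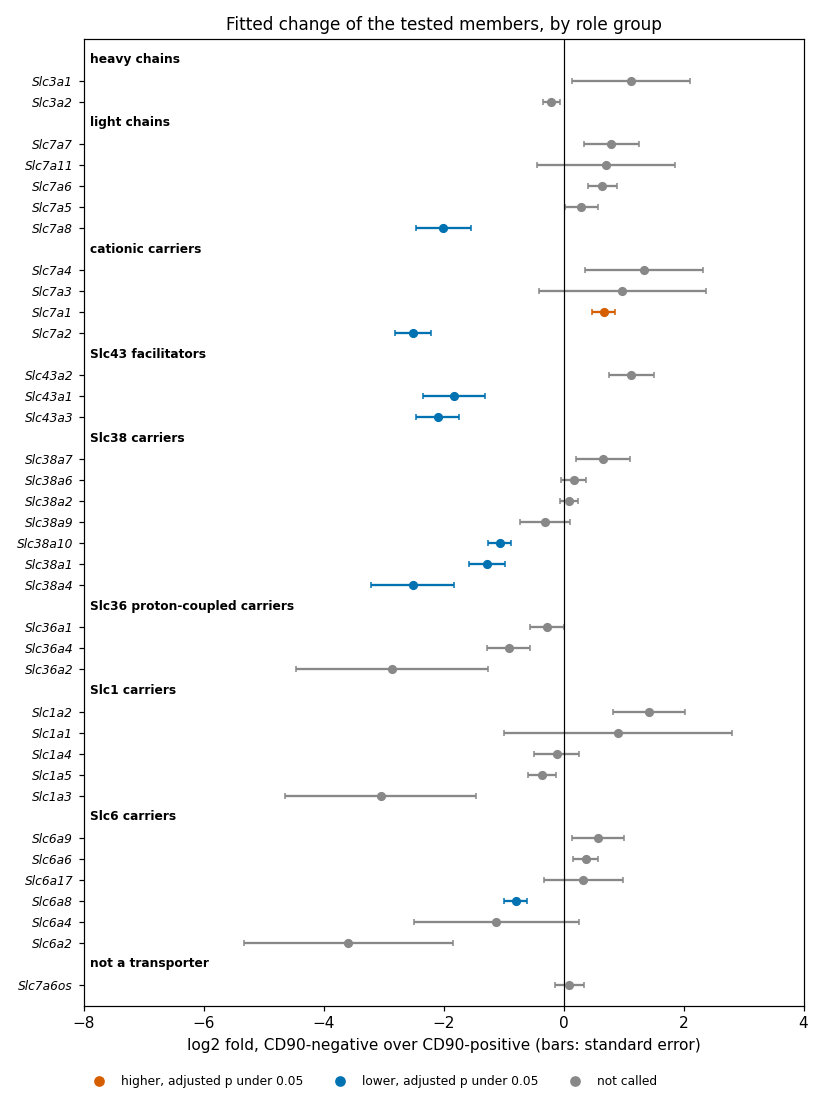
Fitted log2 fold, CD90-negative over CD90-positive, for the 36 tested genes in rows grouped by role, with standard errors as bars. The 8 genes called lower lie left of 0, from Slc38a4 at −2.52 to Slc6a8 at −0.80, and Slc7a1, called higher, lies at 0.67.

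Library totals were 11.7 to 47.7 M estimated counts (M, mega), and nuclear protein-coding genes took 3.71 to 28.5 M of them. Thy1, the gene of the sorted protein, had 16.0, 10.2, 8.06, 5.98 and 2.07 CPM (read counts per mega of the library, scaled by TMM factors) in the CD90-negative libraries of pools 1 to 5, against 97.3, 102, 39.2, 89.8 and 117 CPM in the CD90-positive libraries. Every CD90-negative library was below every CD90-positive one, as the sort sets it. Mitochondrial rRNA took 59.3% ± 17.6 of the gene-assigned counts in CD90-negative libraries and 26.9% ± 12.8 in CD90-positive libraries (SD, n = 5 each), and it was higher in the CD90-negative library of all 5 pools. With this share as a covariate beside the pool block, edgeR called none of the 36 genes and none of all genes tested, with 4 and 883 at an unadjusted p under 0.05. All 9 called genes kept the sign of their log2 fold, which was then −3.12 for Slc7a2, −2.30 for Slc43a3, −1.48 for Slc38a10 and 0.81 for Slc7a1, and −0.40 for Slc6a8, nearest to 0. Neither DESeq2 nor limma-voom was run with this covariate. Share and fraction move together, so their parts in the calls cannot be told apart.

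Markers of other cells differed between the fractions as well. The summed level of 10 fibroblast markers was 5375 to 20644 in CD90-negative libraries and 29251 to 53463 in CD90-positive libraries, in TPM (a length-scaled transcript share) rescaled over nuclear protein-coding genes, and 9 of the 10 were called lower. The 12 cancer epithelial markers summed to 2298 to 9610 rescaled TPM in CD90-negative libraries and 532 to 4373 in CD90-positive libraries, with 8 of 12 called higher. Endothelial and myeloid markers had much smaller sums than the fibroblast and epithelial lists in both fractions, and those called were higher in CD90-negative libraries. The sums were 55.7 to 289.7 against 26.6 to 43.8 rescaled TPM for the 8 endothelial genes (3 of 7 tested higher). They were 57.7 to 189.5 against 38.3 to 73.9 for the 10 macrophage and myeloid genes (1 of 8 tested higher). Of the 8 pericyte and smooth muscle genes 1 was lower (32.0 to 493 against 151 to 402 rescaled TPM), and of the 7 mesothelial genes, which share Krt19 with the epithelial list, 2 were higher (932 to 2336 against 524 to 1678), although the median log2 fold of the 7 was −1.32. The 10 acinar genes gave 1 higher of 5 tested (22.4 to 210.7 against 6.76 to 44.9 rescaled TPM, Prss1 at 0), and the 8 Schwann and neural genes 1 lower of 4 tested (240 to 386 against 385 to 468, with Sox10 and Cdh19 at 0), although the median log2 fold of those 4 was 0.61. None of the 8 endocrine genes was tested (0 to 12.4 against 0 to 16.3 rescaled TPM, with Sst and Iapp at 0), and of 10 T, B and NK cell genes 2 were tested and none was called by edgeR (7.70 to 19.6 against 3.76 to 14.8, with Cd8a, Nkg7 and Ncr1 at 0). In pool 3 the fibroblast markers differed least, with a median log2 ratio of −0.77, against −2.27, −2.83, −1.85 and −3.46 in pools 1, 2, 4 and 5. Pool 3 was also the pool in which each of the 8 lower transporter genes had its log2 ratio nearest to 0, as had Thy1 (−2.27). The libraries of pool 3 also had the lowest mitochondrial rRNA share of their fraction (35.6% CD90-negative, 10.5% CD90-positive). They had the most nuclear protein-coding counts as well (19.8 M and 28.5 M). The parts of the cell markers and of these other traits of pool 3 in the transporter results were not tested.

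The cationic carriers were the one group with a call in each direction. Slc7a2 on chromosome 8 encodes CAT2, an importer of arginine and lysine that is inducible in many cells. It had 5.13, 15.7, 12.9, 11.7 and 3.03 CPM in the CD90-negative libraries of pools 1 to 5, against 43.6, 80.7, 35.0, 54.8 and 35.3 CPM in the CD90-positive libraries. The highest CD90-negative library stayed below the lowest CD90-positive one. The means were 9.70 ± 5.38 CPM in CD90-negative and 49.9 ± 19.1 CPM in CD90-positive libraries (SD, n = 5 each), and the fitted log2 fold was −2.51 (SE 0.29, adjusted p = 0.0021). With each pool left out in turn the log2 fold ran from −2.79 to −2.30 and the call held.

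Slc7a1 on chromosome 5 encodes CAT1, the widely expressed importer of the same amino acids. It had 41.2, 65.4, 43.4, 45.2 and 48.2 CPM in CD90-negative libraries, against 28.6, 24.2, 30.3, 35.9 and 33.4 CPM in CD90-positive libraries. The groups did not overlap, although the CD90-positive library of pool 4 came within a small margin of the CD90-negative library of pool 1. The means were 48.7 ± 9.70 CPM in CD90-negative and 30.5 ± 4.52 CPM in CD90-positive libraries (SD, n = 5 each), and the fitted log2 fold was 0.67 (SE 0.19, adjusted p = 0.043). The log2 ratio was 1.44 in pool 2 and between 0.33 and 0.53 in the other 4 pools. The call was lost whenever any 1 pool was left out, with adjusted p of 0.12, 0.12, 0.064, 0.082 and 0.085 without pools 1 to 5, and the log2 fold then ran from 0.47 to 0.72. The epithelial markers, higher in the same fraction, had median log2 ratios of 3.65, 0.94, 2.81, 2.19 and 0.98 in pools 1 to 5, and their part in the Slc7a1 result was not tested.

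The ratio of Slc7a2 to Slc7a1, taken on rescaled TPM, compared the pair per length within each library. It was 0.130, 0.372, 0.361, 0.400 and 0.229 in the CD90-negative libraries of pools 1 to 5, against 2.42, 4.44, 1.51, 1.71 and 1.81 in the CD90-positive libraries. Slc7a1 was therefore the more abundant of the pair in every CD90-negative library and Slc7a2 in every CD90-positive one. The log2 ratio was lower by a mean difference of −2.99 ± 0.93 (SD, n = 5 pools), in 5 of 5 pools. An exact two-sided sign-flip permutation test gave p = 0.0625, the smallest that 5 pools allow, and 0.0625 after Benjamini-Hochberg adjustment over 4 such pairs, all chosen after values had been seen. The test gives this p whenever all 5 differences share a sign, so for pairs chosen after values were seen it adds no support. The other 2 tested cationic members, Slc7a4 (log2 fold 1.34, adjusted p = 0.44) and the low-level Slc7a3 (0.98, adjusted p = 0.72), were not called, and Slc7a14 had too few reads to be tested.

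**Figure D2:**
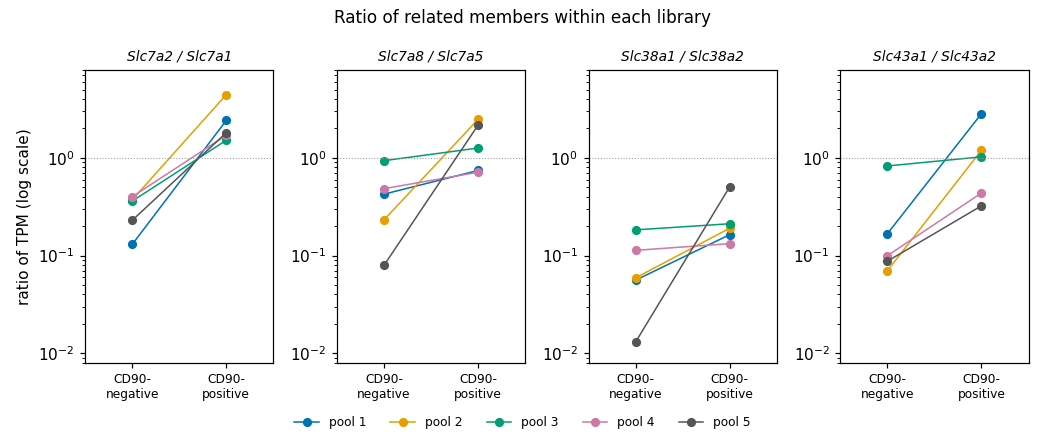
Ratio of 2 members of a family in each library, on rescaled TPM and a log axis, CD90-negative left and CD90-positive right, with lines joining the libraries of a pool. The ratio was lower in the CD90-negative library in 5 of 5 pools for each of the 4 pairs, and the fractions do not overlap for Slc7a2 to Slc7a1.

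The promoter of Slc7a1, the gene that was higher, is set beside that of Slc38a10, the called lower gene of highest level and one with a promoter entry, to show the sequence at their starts. For Slc7a1, which has entries for 2 starts, the upstream one is shown, and the other held none of the elements searched. They are the 250 bases before a RefSeq transcription start (GRCm38.p6), at chr5:148399905-148400154 on the minus strand for Slc7a1 and chr11:120151352-120151601 on the minus strand for Slc38a10, written 5′ to 3′ along the gene. Capitals mark TGANTCA and GGGCGG, each searched on both strands. TGANTCA is a loose form of the AP-1 element with any base (N) at its centre, and GGGCGG is the GC box bound by Sp1.
Slc7a1: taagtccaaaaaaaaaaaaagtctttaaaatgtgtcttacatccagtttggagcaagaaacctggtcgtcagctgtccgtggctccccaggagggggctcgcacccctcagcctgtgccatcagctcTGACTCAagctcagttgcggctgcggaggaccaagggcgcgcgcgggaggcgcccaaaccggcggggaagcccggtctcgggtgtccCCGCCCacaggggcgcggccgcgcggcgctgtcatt
Slc38a10: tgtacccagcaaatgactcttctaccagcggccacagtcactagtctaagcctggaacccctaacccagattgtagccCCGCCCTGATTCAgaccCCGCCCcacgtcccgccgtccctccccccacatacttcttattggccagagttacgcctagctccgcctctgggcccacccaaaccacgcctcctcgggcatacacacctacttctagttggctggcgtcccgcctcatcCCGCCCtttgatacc
Counted from the start site, the Slc7a1 window holds TGACTCA from position −123 and CCGCCC, the GC box read on the other strand, from position −36. The Slc38a10 window holds TGATTCA from position −166, directly after a CCGCCC at −172, with 2 more CCGCCC at −155 and −15. TGANTCA occurred in 6.75% of all 32851 promoters of this length and in 13.4% of the 67 promoters found for 46 of the 64 genes, and GGGCGG in 32.7% and 47.8%. TGATGNAA, the composite element of ATF4 and C/EBP, was in neither window, and it occurred in 3.45% of all promoters and 5.97% of those 67. GGAATG, the TEAD element, occurred in 12.6% and 13.4%. A match is a description of letters and not a site shown to be used. Of the 9 called genes, 5 had an entry.

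The heavy chains carried no call. Slc3a2 on chromosome 19 encodes 4F2hc (CD98), the partner of most Slc7 light chains. It had 51.5, 53.0, 53.9, 56.3 and 37.3 CPM in CD90-negative libraries, against 54.4, 56.3, 71.4, 58.0 and 50.005 CPM in CD90-positive libraries. It was lower in the CD90-negative library of all 5 pools by a small margin, the groups overlapped, and the log2 fold was −0.21 (SE 0.14, adjusted p = 0.40). Slc3a1, the heavy chain of the cystine carrier of kidney and gut, had means below 5 CPM in both fractions, and its log2 fold was 1.12 (SE 0.99, adjusted p = 0.53). Neither gene reached an unadjusted p under 0.05, and DESeq2 and limma-voom called neither.

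Of the 10 light chains 5 were tested, and 1 was called. Slc7a8 on chromosome 14 encodes LAT2, an exchanger of neutral amino acids. It had 9.05, 4.22, 28.3, 4.59 and 1.92 CPM in the CD90-negative libraries of pools 1 to 5, against 22.8, 34.7, 33.7, 19.2 and 20.5 CPM in the CD90-positive libraries. The CD90-negative library of pool 3 lay inside the CD90-positive range and the other 4 lay below it. The means were 9.62 ± 10.8 CPM in CD90-negative and 26.2 ± 7.42 CPM in CD90-positive libraries (SD, n = 5 each), and the fitted log2 fold was −2.01 (SE 0.46, adjusted p = 0.025). The call was lost without pool 1, 2, 4 or 5 (adjusted p of 0.066, 0.078, 0.063 and 0.057) and without the pool block (0.20), while without pool 3 the log2 fold was −2.46 (adjusted p = 0.0030).

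The other light chains had positive folds, none of them called. Slc7a6, which encodes y+LAT2, an exchanger of arginine for neutral amino acids, had 25.0, 22.4, 24.1, 22.4 and 17.4 CPM in CD90-negative libraries, against 9.36, 12.9, 20.3, 22.9 and 10.0 CPM in CD90-positive libraries. It was higher in 4 of 5 pools, the groups overlapped, and the log2 fold was 0.64 (SE 0.24, adjusted p = 0.11). The log2 folds were 0.79 for Slc7a7, a second arginine exchanger (adjusted p = 0.32), 0.30 for Slc7a5, the essential amino acid exchanger LAT1 (0.55), and 0.71 for Slc7a11, the cystine-glutamate exchanger (0.75). The ratio of Slc7a8 to Slc7a5 on rescaled TPM was 0.425, 0.232, 0.936, 0.483 and 0.0793 in CD90-negative libraries, against 0.743, 2.47, 1.26, 0.713 and 2.16 in CD90-positive libraries. Its log2 value differed by a mean of −1.995 ± 1.98 (SD, n = 5 pools), with overlapping groups. The exact two-sided permutation p was 0.0625, the smallest that 5 pools allow, for a pair chosen after values had been seen. Slc7a6os, which is not a transporter, had a log2 fold of 0.09 (adjusted p = 0.86). Its reads and those of Slc7a6 on the opposite strand cannot be told apart where the 2 overlap, since the sources used here do not state the strand setting of the counting.

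All 3 Slc43 genes reached an unadjusted p under 0.05, as did 4132 of all 15378 genes tested, and 2 of the 3 were lower and called. Slc43a3 on chromosome 2 is a family member known for purine nucleobase uptake rather than amino acid transport. It had 10.6, 7.54, 39.8, 8.12 and 3.58 CPM in CD90-negative libraries, against 42.5, 40.4, 58.6, 36.4 and 37.6 CPM in CD90-positive libraries. Only the CD90-negative library of pool 3 reached the CD90-positive range. The means were 13.9 ± 14.7 CPM in CD90-negative and 43.1 ± 8.96 CPM in CD90-positive libraries (SD, n = 5 each), and the fitted log2 fold was −2.10 (SE 0.36, adjusted p = 0.0078). The call held with any 1 pool left out, at log2 folds from −2.49 to −1.81, and was lost without the pool block (adjusted p = 0.10).

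Slc43a1, also on chromosome 2, encodes LAT3, a facilitator for branched-chain amino acids and phenylalanine. It had 1.45, 1.01, 4.55, 1.18 and 0.554 CPM in CD90-negative libraries, against 6.99, 3.17, 6.11, 4.57 and 4.13 CPM in CD90-positive libraries. Pool 3 again supplied the CD90-negative library within the CD90-positive range. The means were low, at 1.75 ± 1.60 CPM in CD90-negative and 4.99 ± 1.54 CPM in CD90-positive libraries (SD, n = 5 each). The log2 fold was −1.83 (SE 0.52, adjusted p = 0.046). This call was lost with any 1 pool left out, with adjusted p of 0.19, 0.087, 0.057, 0.12 and 0.070 without pools 1 to 5, and without the pool block (0.14). The Slc43a1 call was also lost with limma-voom and with an offset for transcript length.

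Slc43a2, which encodes the related facilitator LAT4, had 22.2, 24.8, 23.0, 16.2 and 21.4 CPM in CD90-negative libraries, against 8.99, 3.20, 13.5, 15.1 and 13.5 CPM in CD90-positive libraries. Its groups did not overlap, which is why it was singled out after its values had been seen, and its log2 fold was 1.13 (SE 0.38). It was not called by edgeR (adjusted p = 0.084), while edgeR with no filter on low counts (0.00076), DESeq2 (0.014) and limma-voom (0.034) gave it an adjusted p under 0.05. The ratio of Slc43a1 to Slc43a2 on rescaled TPM was 0.168, 0.0700, 0.826, 0.0997 and 0.0876 in CD90-negative libraries, against 2.84, 1.20, 1.02, 0.437 and 0.323 in CD90-positive libraries. Its log2 value differed by a mean of −2.50 ± 1.61 (SD, n = 5 pools), and the groups overlapped through pool 3. The exact two-sided permutation p was 0.0625, the smallest that 5 pools allow, for a pair chosen after values had been seen. Over all 36 tested genes, Slc7a1 and Slc43a2 lay above with no overlap, as did 3.32% of all genes tested, and Slc7a2, Slc38a10 and Slc6a8 lay below, as did 4.62% of all genes tested.

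**Figure D3:**
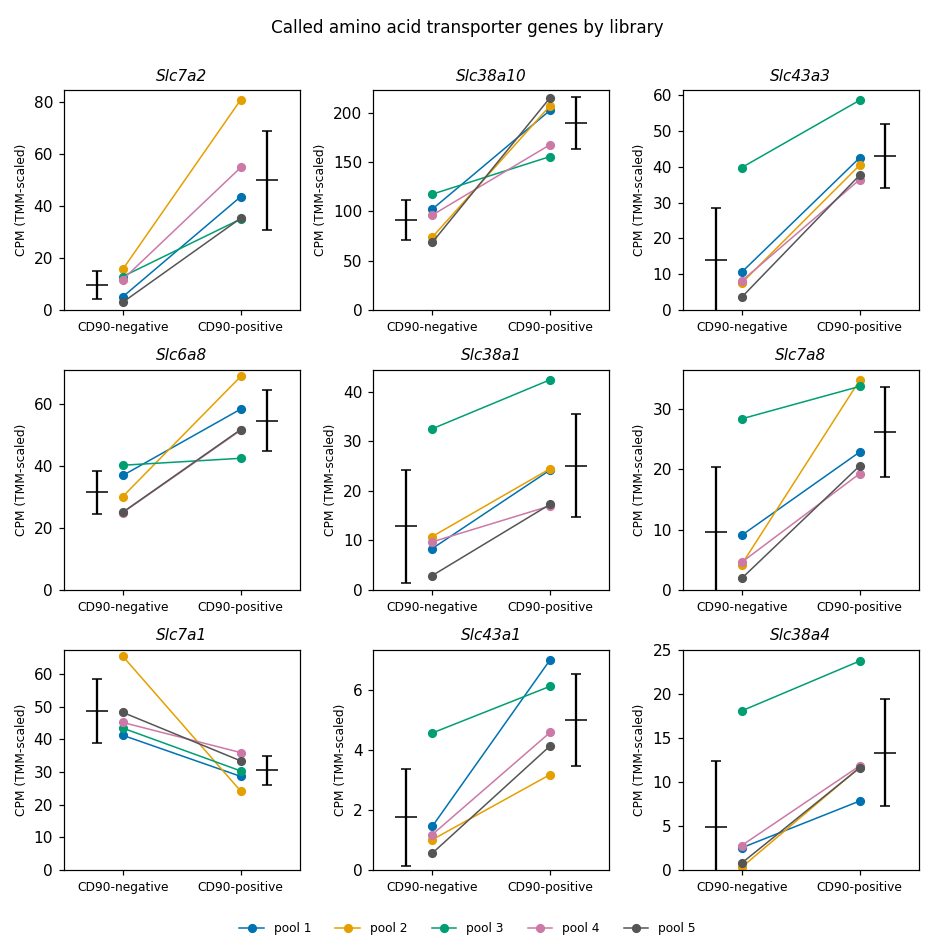
CPM of each called gene in every library, CD90-negative left and CD90-positive right, with lines joining the libraries of a pool and the mean and SD of 5 libraries beside them (SD bars are cut at 0). The fractions do not overlap for Slc7a2, Slc38a10, Slc6a8 and Slc7a1, and for the other 5 genes the CD90-negative library of pool 3 lies within the CD90-positive range.

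The Slc38 family held 3 of the 8 lower genes. Slc38a10 on chromosome 11, a little-studied family member reported to carry glutamine and related amino acids, had the highest rescaled TPM of these genes in CD90-positive libraries. It had 102, 73.8, 117, 96.2 and 68.5 CPM in CD90-negative libraries, against 202, 207, 156, 168 and 215 CPM in CD90-positive libraries. The groups were well apart. The means were 91.6 ± 20.3 CPM in CD90-negative and 189.6 ± 26.3 CPM in CD90-positive libraries (SD, n = 5 each), and the fitted log2 fold was −1.07 (SE 0.19, adjusted p = 0.0072), and the call held with any 1 pool left out (log2 folds of −1.23 to −0.95).

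Slc38a1 and Slc38a2 on chromosome 15 encode SNAT1 and SNAT2, the sodium-coupled importers of glutamine and alanine. Slc38a1 had 8.37, 10.8, 32.5, 9.72 and 2.92 CPM in CD90-negative libraries, against 24.2, 24.5, 42.4, 16.98 and 17.3 CPM in CD90-positive libraries. Within the CD90-negative fraction the library of pool 3 stood well above the other 4, which lay below all CD90-positive libraries. The means were 12.9 ± 11.4 CPM in CD90-negative and 25.1 ± 10.4 CPM in CD90-positive libraries (SD, n = 5 each), and the fitted log2 fold was −1.27 (SE 0.30, adjusted p = 0.022). Without pool 1, without pool 2 and without the pool block the adjusted p was 0.10, 0.058 and 0.32, and without pool 3 the log2 fold was −1.51 (0.016).

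Slc38a2, the member of the family induced by amino acid shortage, had 145, 173, 179, 102 and 174 CPM in CD90-negative libraries, against 125, 152, 183, 136 and 122 CPM in CD90-positive libraries. It was higher in 3 of 5 pools and the groups overlapped, at 0.09 (log2 fold; SE 0.16, adjusted p = 0.78). The ratio of Slc38a1 to Slc38a2 on rescaled TPM was 0.0560, 0.0592, 0.183, 0.113 and 0.0131 in CD90-negative libraries, against 0.164, 0.190, 0.211, 0.132 and 0.506 in CD90-positive libraries. Its log2 value differed by a mean of −1.79 ± 2.07 (SD, n = 5 pools), with overlapping groups. The exact two-sided permutation p was 0.0625, the smallest that 5 pools allow, for a pair chosen after values had been seen. On estimated counts the CD90-positive ratio of pool 5 was 0.141 and the mean log2 difference was −1.38 ± 1.125. A form with a retained intron took up to 77.7% of the Slc38a1 TPM in a CD90-positive library.

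Slc38a4, a carrier of neutral and cationic amino acids best known from liver, is the gene after Slc38a2 on chromosome 15, so that Slc38a2 stands between the 2 lower genes in the RefSeq order. It had 2.51, 0.302, 18.1, 2.78 and 0.776 CPM in CD90-negative libraries, against 7.83, 11.6, 23.7, 11.8 and 11.6 CPM in CD90-positive libraries. Pool 3 had the highest library in both fractions. The log2 fold was −2.52 (SE 0.69, adjusted p = 0.0498). The call was lost without pool 1, 2, 4 or 5 (adjusted p of 0.11, 0.067, 0.090 and 0.12) and without the pool block (0.38), while without pool 3 the log2 fold was −3.14 (adjusted p = 0.013). The Slc38a4 call was also lost with limma-voom and with an offset for transcript length. The lysosomal members did not pass, with log2 folds of 0.66 for Slc38a7, a glutamine exporter (adjusted p = 0.41), and −0.31 for Slc38a9, the arginine sensor of mTORC1 (0.70). Slc38a6, an orphan of the family, had a log2 fold of 0.17 (adjusted p = 0.67).

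Of 21 Slc6 genes 6 were tested, and Slc6a8 was called. Slc6a8 on the X chromosome carries creatine. It had 37.0, 30.2, 40.3, 25.0 and 25.1 CPM in CD90-negative libraries, against 58.4, 68.9, 42.5, 51.5 and 51.8 CPM in CD90-positive libraries. The groups did not overlap, but in pool 3 the 2 libraries were close, with a log2 ratio of −0.08. The means were 31.5 ± 6.92 CPM in CD90-negative and 54.6 ± 9.78 CPM in CD90-positive libraries (SD, n = 5 each), and the fitted log2 fold was −0.80 (SE 0.19, adjusted p = 0.022). The call was lost without pool 1, 2, 4 or 5 (adjusted p of 0.079, 0.077, 0.069 and 0.057), while without pool 3 the log2 fold was −0.99 (0.0056).

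Slc6a6, the taurine carrier, had 133, 160, 88.0, 68.8 and 128 CPM in CD90-negative libraries, against 92.5, 68.3, 66.7, 90.1 and 122 CPM in CD90-positive libraries. It was higher in 4 of 5 pools with much overlap (log2 fold 0.37, SE 0.21, adjusted p = 0.32). The other 4 tested Slc6 genes had means below 5 CPM in both fractions and were not called. Their log2 folds were 0.57 for the glycine carrier Slc6a9 (adjusted p = 0.46), 0.33 for Slc6a17, a vesicular carrier of neutral amino acids (0.81), −1.12 for the serotonin carrier Slc6a4 (0.67) and −3.59 for the noradrenaline carrier Slc6a2 (0.23). DESeq2 gave Slc6a2 an adjusted p of 0.031.

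The Slc1 and Slc36 families had no call by edgeR. An unadjusted p under 0.05 was reached by 1 of 5 and 1 of 3 tested genes, beside 4132 of all 15378 genes tested. Slc1a5, the glutamine exchanger ASCT2, had 27.6, 14.6, 42.2, 28.6 and 18.5 CPM in CD90-negative libraries, against 40.9, 36.6, 40.6, 24.4 and 21.9 CPM in CD90-positive libraries. Its groups overlapped, and its log2 fold was −0.37 (SE 0.23, adjusted p = 0.36). The glutamate carrier Slc1a2 had a log2 fold of 1.43 and was higher in 5 of 5 pools (edgeR adjusted p = 0.16), and it was the 1 Slc1 gene that DESeq2 (0.038) and limma-voom (0.043) called. The log2 folds were −0.12 for Slc1a4, the serine and alanine exchanger ASCT1 (adjusted p = 0.88), and 0.90 and −3.05 for the glutamate carriers Slc1a1 (0.82) and Slc1a3 (0.26), which had few reads. Among the Slc36 carriers, Slc36a4 had a log2 fold of −0.92 (adjusted p = 0.13, and 0.034 with a log2 fold of −1.25 without pool 5). The log2 fold was −0.27 for the lysosomal carrier Slc36a1 (0.60) and −2.86 for the low-level Slc36a2 (0.30). DESeq2 and limma-voom called no Slc36 gene.

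**Figure D4:**
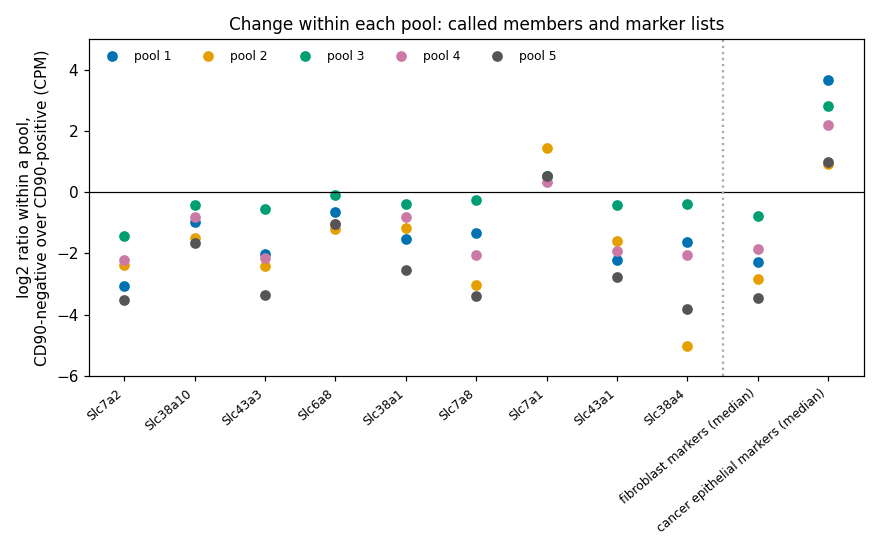
Log2 ratio of the CD90-negative to the CD90-positive library in each of the 5 pools, for the 9 called genes and for the median of the fibroblast and cancer epithelial markers. All points of the 8 lower genes lie below 0, with pool 3 nearest to 0 in each, and all points of Slc7a1 lie above 0.

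Levels were compared between genes per length, on rescaled TPM. In CD90-negative libraries the 4 highest were Slc6a6 with 183.9 ± 52.7, Slc38a10 with 182.3 ± 30.9, Slc3a2 with 163.4 ± 23.1 and Slc38a2 with 157.7 ± 41.2 rescaled TPM (SD, n = 5), and these 4 lay within each other's spread. In CD90-positive libraries Slc38a10 came first with 371.6 ± 62.1 rescaled TPM, above Slc3a2 with 173.9 ± 26.7, Slc38a2 with 141.9 ± 30.4, Slc43a3 with 130.4 ± 36.2 and Slc6a6 with 127.5 ± 45.5, and Slc38a2, Slc43a3 and Slc6a6 lay within each other's spread. Slc43a3, at rank 4 in CD90-positive libraries, had 40.2 ± 38.9 rescaled TPM and rank 10 in CD90-negative libraries.

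**Figure D5:**
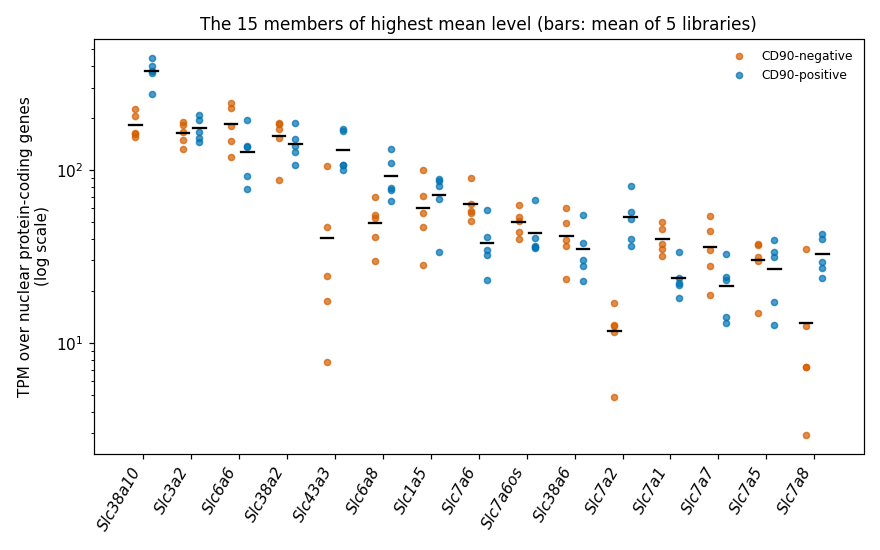
Rescaled TPM of the 15 genes of highest mean level in every library on a log axis, CD90-negative left of CD90-positive, with the mean of 5 libraries as a bar. Slc38a10, Slc3a2, Slc6a6 and Slc38a2 stand above the rest in CD90-negative libraries, and Slc38a10 leads in CD90-positive libraries.

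The shares of a gene's transcript forms varied widely between libraries of a fraction. The leading coding form of Slc7a1 carried 75.5% ± 12.6 of the Slc7a1 TPM in CD90-negative libraries and 75.7% ± 8.84 in CD90-positive libraries (SD, n = 5 each). A coding form of Slc38a10 carried 42.5% ± 14.5 in CD90-negative and 38.2% ± 5.04 in CD90-positive libraries. A form annotated as a processed transcript, not as coding, carried 29.5% ± 13.7 in CD90-negative and 38.3% ± 4.95 in CD90-positive libraries. The summed TPM of Slc38a10 includes both forms. The leading form of Slc6a8 carried 66.4% ± 8.21 in CD90-negative and 58.5% ± 21.3 in CD90-positive libraries. A first coding form carried 48.2% ± 22.04 of Slc7a2 in CD90-negative and 48.5% ± 18.8 in CD90-positive libraries, and another form carried 7.20% ± 11.7 in CD90-negative and 25.5% ± 12.1 in CD90-positive libraries. For Slc7a8, a coding form carried 63.2% ± 26.2 in CD90-negative and 80.7% ± 8.91 in CD90-positive libraries, and a form with a retained intron carried the rest. No test was made on these shares.

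The 28 genes that were not tested had few or no reads. No read was assigned in any library to 12 of them, which include Slc6a3, Slc6a5, Slc6a11, Slc6a14, Slc6a16, Slc6a18, Slc6a20a, Slc6a21, Slc7a10, Slc7a12 and Slc36a3. A count of 0 allows up to 3 counts, or 0.0452 to 0.320 CPM depending on the library. The other 16 had up to 148 reads over all libraries (Slc38a3) and at most 3.20 CPM in any library (Slc7a13). They were Slc1a6, Slc1a7, Slc6a7, Slc6a12, Slc6a13, Slc6a15, Slc6a19, Slc6a20b, Slc7a9, Slc7a13, Slc7a14, Slc7a15, Slc38a3, Slc38a5, Slc38a8 and Slc38a11. These include the carriers of dopamine and glycine of nerve cells and the apical carriers of kidney and gut. Another 14 genes were tested at means below 5 CPM in both fractions, where the standard errors were widest. The called gene Slc43a1 was among these 14.

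Genes that act on amino acids inside the cell were read from lists beside the transporters. Of 110 such genes tested, 10 were called, 4 higher and 6 lower, beside 12.9% of all genes tested, and 2 to 12 were called with 1 pool left out, fewest without pool 1 and most without pool 3. Of 22 genes of the ATF4 and amino acid response, 3 were lower and 1 was higher, with a median log2 fold of −0.47. Cebpb, a transcription factor of the response, averaged 116.8 ± 37.0 CPM in CD90-negative and 242.7 ± 25.5 CPM in CD90-positive libraries (SD, n = 5 each; log2 fold −1.11, SE 0.19, adjusted p = 0.0062). The transcription factor Atf5 (log2 fold −1.44, adjusted p = 0.025) and the mitochondrial folate enzyme Aldh1l2 (−2.03, 0.017) were lower. Phgdh, the first enzyme of serine synthesis, averaged 22.5 ± 7.69 CPM in CD90-negative and 10.4 ± 5.06 CPM in CD90-positive libraries (log2 fold 1.21, SE 0.28, adjusted p = 0.020). Atf4 itself, named although it was not called, had a log2 fold of −0.23 (adjusted p = 0.39). Without pool 1 or 2 Aldh1l2 and Atf5 lost the call (adjusted p of 0.077 and 0.056, and 0.11 and 0.077), as did Atf5 without pool 5 (0.079) and Phgdh without pool 1, 4 or 5 (0.085, 0.093 and 0.055).

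Of 18 genes for glutamine, glutamate, proline and aspartate, Glul was higher and Oat was lower, with a median of −0.05. Glul, glutamine synthetase, averaged 58.2 ± 10.9 CPM in CD90-negative and 30.8 ± 8.56 CPM in CD90-positive libraries (SD, n = 5 each; log2 fold 0.93, SE 0.16, adjusted p = 0.0064), and its call held with any 1 pool left out. Oat, ornithine aminotransferase, had a log2 fold of −0.77 (adjusted p = 0.031), and lost the call without pool 1, 2, 4 or 5 (0.093, 0.072, 0.065 and 0.066). Among 20 tested enzymes for branched-chain amino acids, cysteine, serine and arginine, 2 were higher and 2 were lower, with a median of −0.30. The higher genes were Gclc, which starts glutathione synthesis (0.87, adjusted p = 0.018, and 0.095 without pool 1), and Gldc, which cleaves glycine (3.04, adjusted p = 0.035). The lower genes were Bckdhb (−2.66, adjusted p = 0.035) and Dbt (−0.94, 0.041), subunits of the enzyme complex that degrades branched-chain keto acids. Without pool 1, 2 or 4, Gldc, Bckdhb and Dbt were not called (adjusted p from 0.057 to 0.16), nor was Gldc without pool 3 (0.092), nor Bckdhb and Dbt without pool 5 (0.092 and 0.077).

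The remaining 3 lists had no call by edgeR with all pools and the main filter. In that fit 4132 of all 15378 genes tested had an unadjusted p under 0.05. Of 22 tested genes of amino acid sensing by mTORC1, 4 had an unadjusted p under 0.05, and DESeq2 and limma-voom called 2 and 1, all lower. The edgeR test called 1 of them lower with no filter, 1 lower without pool 3 and 2 lower without pool 5, Depdc5 among them in each case (adjusted p of 0.00056, 0.034 and 0.038). The median log2 fold was −0.12, and the smallest adjusted p were those of Depdc5 (−0.84, 0.062) and Sesn3 (−0.56, 0.12), both inhibitors of the pathway. Of 12 tested other amino acid carriers, 1 had an unadjusted p under 0.05 and DESeq2 called 1 and limma-voom 0, and edgeR on protein-coding genes alone called 1, each lower. The median was 0.32, with the mitochondrial aspartate-glutamate carrier Slc25a12 at −1.17 (adjusted p = 0.060) and the aromatic amino acid carrier Slc16a10 at 0.95 (0.22). Of 20 cytosolic aminoacyl-tRNA synthetases, 4 had an unadjusted p under 0.05, DESeq2 called 2 higher and 1 lower, and limma-voom called 1 lower. The edgeR test called 2 lower with the stricter filter and 1 lower with no filter or with protein-coding genes alone. The median was 0.15, with Yars at −0.70 (adjusted p = 0.056) and Aars at −0.44 (0.071).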

How the data were processed

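Salmon 1.9.0 and the builds GRCm39 and mm39 are named in the submitters' processing notes. The authors deposited, per transcript and library, an estimated count, a TPM value and an effective length. The sources used here do not give the annotation release, strand or bias settings. Transcript identifiers were matched to GENCODE M21 for gene names only. Of 144584 transcripts, 133666 (92.4%) matched, and the others held 3.63% to 12.1% of a library's counts. Counts were summed per gene and rounded to whole numbers. No column of another sample was present.

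The main test was edgeR 4.0.16 under R 4.3.3 (genes kept by filterByExpr, TMM, robust quasi-likelihood fit, tumour pool as a block), with Benjamini-Hochberg adjustment over all 15378 genes and a threshold of 0.05. The pipeline was tested on simulated data. For levels and ratios, the deposited TPM were summed per gene and rescaled to the same sum over nuclear protein-coding genes. The effective length entered an alternative fit. Other settings used DESeq2 1.42.0, limma-voom (limma 3.58.1), other size factors and filters, a covariate, and pools left out. Dividing reads of near-identical genes was left to Salmon's model. Intervals and floors cover counting error, and PCR duplicates were not identified by molecular tags.

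Pairing comes from animal numbers that both fractions of a pool share in the titles. The correlation between the paired libraries' deviations from the mean of their fraction was 0.057, 0.004, 0.461, 0.028 and 0.188 for pools 1 to 5. Genes named with values in every library were those called and the 8 of highest mean level. From each other list up to 4 called genes, or 2 where none was called, were named. A few genes of the lists are not reported here by name. The genes and lists were chosen with earlier results of these data known. The ratio pairs, the count without Slc7a6os, and the naming of Slc43a2 and Atf4 were added after the data were seen.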

Additional observations from a re-analysis of the deposited data

Results flagged for a closer look

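For each tested gene and fraction, the highest and lowest of the 5 libraries were set against the other 4. A library was listed where its gap to the nearest of the others was a larger share of the whole range than Dixon's 95% value of 0.71. This listed 15 of 72 groups, and 7 of the 15 were the CD90-negative library of pool 3. A chance rate of about 1 in 20 holds for independent, normally distributed values. These CPM were not log-scaled and the genes share libraries, so the 15 cannot be set against that rate. Values are in CPM.

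The CD90-negative library of pool 3 was the highest of its fraction for Slc38a1 (32.5, next 10.8), Slc38a4 (18.1, next 2.78), Slc7a8 (28.3, next 9.05), Slc43a3 (39.8, next 10.6), Slc43a1 (4.55, next 1.45), Slc36a4 (13.3, next 5.14) and Slc6a2 (2.87, next 0.320). In the CD90-positive fraction the library of pool 3 was the highest for Slc38a4 (23.7, next 11.8) and Slc43a3 (58.6, next 42.5). In the same CD90-negative library the fibroblast markers summed to 20644 rescaled TPM, the highest of its fraction, and mitochondrial rRNA took 35.6%, the lowest of its fraction.

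The other 6 groups were spread over pools 1, 2 and 5. In CD90-negative libraries, Slc7a1 was highest in pool 2 (65.4, next 48.2), Slc36a2 was highest in pool 1 (0.551, next 0.107) and Slc3a2 was lowest in pool 5 (37.3, next 51.5). In CD90-positive libraries, Slc7a11 (4.42, next 0.652) and Slc7a6os (21.6, next 11.2) were highest in pool 5, and Slc36a1 was lowest in pool 1 (7.08, next 9.85).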

How the results depend on the processing

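Of the alternative settings, other size factors, limma-voom, a stricter filter, protein-coding genes only, and leaving out mitochondrial genes or Slc7a6os kept the count of called transporter genes between 7 and 9, but limma-voom's 9 were 3 higher and 6 lower. DESeq2 called 12 of them, 3 higher and 9 lower, and testing with no filter called 10, 2 higher and 8 lower. The number tested and the calls over all genes changed too. The stricter filter called 7 of 17 tested transporter genes beside 1770 of all 7002 genes. Testing with no filter called 10 of 52 beside 2934 of 28069, and limma-voom 9 of 36 beside 2303 of 15378. Without the pool block 6.28% of genes tested, 4 transporter genes and 5 of the listed other genes were called, against 12.9%, 9 and 10 with it. The 5 transporter genes that lost their call were Slc38a1, Slc38a4, Slc43a1, Slc43a3 and Slc7a8. DESeq2 called 22.4% of genes and 27 listed genes, testing with no filter called 17 listed genes, and the transcript length offset called 5 transporter genes and 6 listed genes. With mitochondrial rRNA added as covariate edgeR called 0% of genes, 0 transporter genes and 0 listed genes (no other tool was run with it; 883 genes, 4 of them transporter genes, had an unadjusted p under 0.05), although all 9 transporter genes kept their sign and log2 folds were −1.56 for Cebpb and 1.53 for Glul; leaving out pools 4 and 5 called 3.35%, 1 and 1, and a threshold of 0.01 called 4.58%, 3 and 2. With 1 pool left out, 4.37% to 13.6% of genes, 3 to 7 transporter genes and 2 to 12 listed genes were called. The cause of these changes was not tested. Slc7a2 kept its call under 16 of 17 settings, Slc38a10 under 15 and Slc43a3 under 14. Slc38a1 and Slc6a8 kept it under 11 of 17, Slc7a8 under 10 and Slc7a1 under 9. Slc38a4 kept it under 7 of 16 and Slc43a1 under 6 of 16. The length offset lost the calls of Slc38a1, Slc38a4, Slc43a1 and Slc7a1, and limma-voom those of Slc38a4 and Slc43a1. On estimated counts the mean log2 differences of the 4 ratios were −3.20, −2.32, −1.38 and −3.00 for Slc7a2/Slc7a1, Slc7a8/Slc7a5, Slc38a1/Slc38a2 and Slc43a1/Slc43a2.

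Signs turned for some genes that were not called. With the covariate the log2 folds were 5.86 for Slc1a3, 0.66 for Slc1a4, 0.68 for Slc36a4, −1.05 for Slc3a1, −0.94 for Slc7a6os and 0.18 for Depdc5. With 1 pool left out they ran from −0.12 to 2.15 for Slc1a1 (below 0 without pool 2 or 5), from −0.34 to 0.068 for Slc1a4 (above 0 without pool 1), from −0.034 to 0.79 for Slc6a17 (below 0 without pool 5) and from −0.047 to 0.23 for Slc7a6os (below 0 without pool 2 or 4), and Slc38a2 was at −0.041 without pool 5. Slc6a17 was at −0.18 without pools 4 and 5, and Yars at 0.055 with the length offset. Depth limits the CD90-negative library of pool 4 most, with 3.71 M nuclear protein-coding counts.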
